A study of Homo sapiens with 18 samples.

Results

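LIN28A, LIN28B, IGF2BP1, IGF2BP2, IGF2BP3, HMGA1 and HMGA2 are 3 families of genes best known from the early embryo, and their messenger RNA was followed from pluripotent cells into anterior and posterior neural ectoderm. The 7 genes were chosen by symbol, and each matched 1 of the 37550 rows of the expression table. All 7 were among the 17033 genes tested, those with at least 1 TPM (a relative abundance scaled by transcript length, with the same total in each library) in at least 2 libraries. The data were 18 poly-A RNA libraries of H1, a wild-type line of human embryonic stem cells, in 9 groups of 2. One group, hPSC, was taken at day 0 before differentiation. Day 2 gave aNE, anterior neural ectoderm, and pNE, its posterior counterpart. Both were also carried to day 4 in media labelled forebrain (aNE_T, pNE_T), midbrain (aNE_M, pNE_M) or hindbrain (aNE_H, pNE_H). Every group except hPSC first spent day 1 in a definitive ectoderm medium with A8301 at 1 µM, trametinib at 250 nM, C59 at 1 µM and LDN193189 at 100 nM. The second day's medium held A8301, LDN193189 and thiazovivin for both origins. To these it added C59, a blocker of WNT secretion, at 1 µM for aNE, and TTNPB, a retinoic acid receptor agonist, at 50 nM with FGF2 at 20 ng/mL and XAV939 at 1 µM for pNE. The forebrain medium held XAV939, LDN193189 and FGF2, and the composition of the other day-4 media is not used here. Cells for day 2 were plated at 37500 per cm2, and cells for day 4 at 75000 (aNE) or 150000 (pNE) per cm2, so at day 4 origin and density cannot be told apart. All groups come from 1 line, so nothing here speaks to other lines, and p-values measure the spread between these pairs of libraries.

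LIN28A and LIN28B are cytoplasmic and nuclear RNA-binding proteins that bind the precursors of the let-7 microRNAs and block their maturation. IGF2BP1, IGF2BP2 and IGF2BP3 bind messenger RNAs, IGF2 and MYC among them, protect them from decay, and read N6-methyladenosine on them. HMGA1 and HMGA2 are small chromatin proteins that bind the minor groove of AT-rich DNA, and HMGA2 is known for its part in the self-renewal of fetal neural stem cells. The 3 families are tied together by let-7, which represses many of these genes through sites in their 3′ untranslated regions (UTRs) as development proceeds.

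That link can be read in the sequences. In RefSeq (GRCh38.p14), 11 of 2370 mature human microRNAs share the let-7 seed, bases 2 to 8 of the microRNA, which pairs with a target site. They are let-7a to let-7g and let-7i, miR-98-5p, miR-4458 and miR-4500. A few are printed with the seed in capitals, to show that the seed is the same while the 3′ parts vary.
let-7a-5p: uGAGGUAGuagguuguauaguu
let-7e-5p: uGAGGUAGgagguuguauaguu
let-7i-5p: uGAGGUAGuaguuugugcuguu
miR-98-5p: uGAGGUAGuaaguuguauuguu

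The DNA letters that pair with this seed are CTACCTC, and CTACCTCA when an A follows. Only the strand of the transcript was searched, and each CTACCTCA is also counted as the shorter match. The shorter match was in the 3′ UTR of 8.32% of 19590 protein-coding genes (GENCODE 29, GRCh38, principal transcript), and CTACCTCA in 3.16%. All 7 genes had CTACCTC at least 1 time, and every gene except HMGA1 had CTACCTCA. The stretches of 30 bases that end in the match are printed with the match in capitals, 1 for each gene and a further one for HMGA2.
LIN28A: ttggagtgcacagcctattgaaCTACCTCA
LIN28B: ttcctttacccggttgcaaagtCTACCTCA
IGF2BP1: gcaatgctgtgtgcgaagtaaaCTACCTCA
IGF2BP2: cgagaaaaacacacagaagaagCTACCTCA
IGF2BP3: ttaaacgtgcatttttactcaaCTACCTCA
HMGA1: tccatttttcctctgttcacaaaCTACCTC
HMGA2, first: agggggcgccaacgttcgatttCTACCTCA
HMGA2, second: caatatatccccactactcaataCTACCTC

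These lie in the 3′ UTR on GRCh38 at chr1:26427341-26427370 (LIN28A), chr6:105078805-105078834 (LIN28B), chr17:49051054-49051083 (IGF2BP1), chr3:185644220-185644249 on the minus strand (IGF2BP2), chr7:23311795-23311824 on the minus strand (IGF2BP3) and chr6:34245821-34245850 (HMGA1). Those of HMGA2 lie at chr12:65963291-65963320 and chr12:65964525-65964554. The first HMGA2 match starts 21 bases into the UTR, so the first 2 bases printed for it belong to the stop codon. HMGA2 had 4 matches in 3003 bases of 3′ UTR. Of 2015 genes with a UTR of 0.8 to 1.25 times that length, 0.0993% had at least as many. LIN28B had 4 in 4549 bases (0.233% of 1289 genes of like length) and IGF2BP1 had 4 in 6206 bases (0.556% of 720). Each share counts the gene itself, so these 3 rest on very few other genes. LIN28A, IGF2BP2, IGF2BP3 and HMGA1 had 1 each, and 16.8%, 11.7%, 11.9% and 8.54% of genes of like length had at least 1. A match of letters is a description and not a working site, and the genes were named for their place in this pathway, so their matches are no independent finding. The microRNAs themselves were not measured by these poly-A libraries.

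Each of the 7 genes had at least 51.1 TPM in every library. HMGA1 was the most abundant, at 1956 to 2658 TPM, and was between rank 51 and rank 85 of all rows in each library. LIN28A followed at 709 to 1342 TPM, with ranks of 115 to 188. The other genes were lower: HMGA2 had 113 to 433 TPM, IGF2BP1 140.1 to 247, IGF2BP2 91.7 to 138, IGF2BP3 64.2 to 127 and LIN28B 51.1 to 105. Because TPM is scaled by length, these levels can be set side by side.

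**Figure D1:**
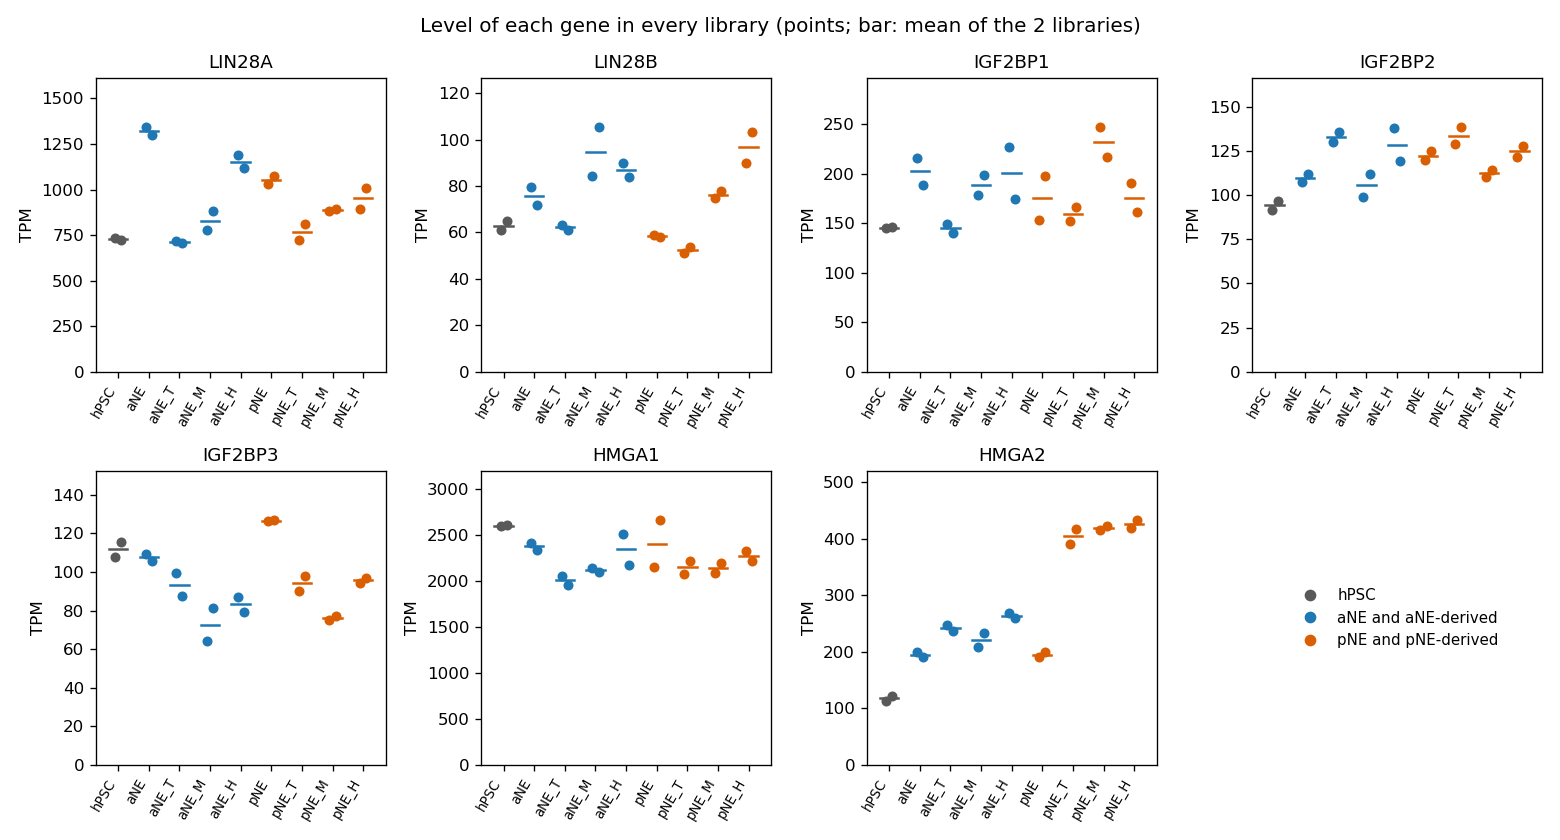
TPM (vertical axes, from 0) of each of the 7 genes in the 2 libraries (points) of the 9 groups (horizontal axes), with bars at the group means. HMGA2 rises from 118 in hPSC to between 404 and 426 in the pNE-derived groups at day 4, while the other 6 genes stay within 2-fold between group means.

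The range between the highest and the lowest of the 9 group means, on the log2(TPM + 1) scale, was 1.85 for HMGA2, 0.89 for LIN28A, 0.87 for LIN28B, 0.80 for IGF2BP3, 0.67 for IGF2BP1, 0.50 for IGF2BP2 and 0.38 for HMGA1. The median range was 1.01 over the 17033 tested genes and 0.67 over the 3296 genes with a mean of at least 50 TPM. HMGA2 thus varied more than 89% of those abundant genes, and HMGA1 more than 12.7% of them. A gene was called changed in a comparison at an adjusted p under 0.05 and a difference of at least 2-fold (limma on log2(TPM + 1), adjusted over all tested genes by the Benjamini-Hochberg method). By this rule HMGA2 was called in 8 of the 24 comparisons of 2 groups made here, each time higher, and no other gene of the 7 in any. At the same adjusted p with no minimum fold, LIN28A passed in 16 of the 24, LIN28B in 14, IGF2BP2 and IGF2BP3 in 12, IGF2BP1 in 8 and HMGA1 in 4.

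Between 13686 and 14679 genes had at least 1 TPM, and in all 18 the library most like it over all tested genes was its replicate. Mitochondrial genes took 0.960% to 1.23% of a library's TPM in hPSC, 2.96% to 3.74% at day 2 and 1.53% to 3.04% at day 4. Their share thus moved with the comparisons between hPSC, day 2 and day 4, and its part in those results was not tested. TPM does not keep the number of reads, so the depth behind each value is unknown. Pluripotency markers (8 genes, POU5F1 among them) summed to 5566 to 5607 TPM in hPSC, 831 to 894 at day 2 and 130.3 to 266 at day 4. Neural ectoderm markers (9 genes, SOX1 and PAX6 among them) summed to 226 to 239 TPM in hPSC, 467 to 1109.6 at day 2 and 194 to 1116 at day 4. The hPSC sum was mostly SOX2, a gene of stem cells too, with a mean of 191 TPM there and 93.9 in pNE_H, the group with the lowest day-4 sum. PAX6 was at 0.0616 TPM in hPSC and 5.39 in pNE_H, CDH2 at 18.8 and 85.3, and SOX21 at 0.181 and 3.32. SOX3 went the other way, from 21.4 TPM in hPSC to 4.86 in pNE_H. SOX1, LHX5 and ZIC1 were under 1 TPM in both groups. HES5 was at 0.0721 TPM in hPSC and was listed at 0 in both pNE_H libraries. In bulk RNA, fewer cells of a type and less RNA per cell cannot be told apart.

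LIN28A had its highest mean of each origin at day 2, though not beyond that of hindbrain medium at an adjusted p of 0.05, and its level at day 4 differed between media. It had 737 and 726 TPM in the hPSC libraries, 1342 and 1302 in aNE and 1032 and 1074 in pNE. The 3 groups did not overlap. Compared with hPSC, the log2 level of LIN28A was higher by 0.85 in aNE (SE 0.07, adjusted p = 1.56e-06). In pNE the difference was 0.53 (adjusted p = 0.000113), and both are under the 2-fold minimum. The level in pNE was under that in aNE by a log2 difference of -0.33 (adjusted p = 0.0104).

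By day 4 LIN28A was back near the hPSC level in forebrain medium, with 717 and 709 TPM in aNE_T and 722 and 809 in pNE_T. The differences from hPSC were -0.04 (95% interval -0.20 to 0.13, adjusted p = 0.725) and 0.06 (-0.10 to 0.23, adjusted p = 0.503). In hindbrain medium it stayed higher, at 1187 and 1120.4 TPM in aNE_H and 896 and 1009 in pNE_H. Midbrain medium lay between, at 776 and 880.2 TPM in aNE_M and 884 and 894 in pNE_M. From day 2 to day 4 the log2 differences were -0.89 in aNE_T (adjusted p = 1.55e-06), -0.68 in aNE_M (1.24e-05) and -0.20 in aNE_H (0.0644). For pNE they were -0.46 in pNE_T (adjusted p = 0.000381), -0.24 in pNE_M (0.0217) and -0.15 in pNE_H (0.147). The drop was thus larger from aNE than from pNE, by 0.43 in forebrain medium (SE 0.11, adjusted p of the interaction = 0.0172) and by 0.43 in midbrain medium (adjusted p = 0.0154). In hindbrain medium that difference was 0.05 (95% interval -0.18 to 0.28, adjusted p = 0.821). Between media, LIN28A was higher in hindbrain than in forebrain medium by 0.69 for aNE origin (adjusted p = 2.08e-05) and by 0.31 for pNE origin (adjusted p = 0.0104). In hindbrain medium pNE_H was under aNE_H by -0.28 (adjusted p = 0.017), and in the other media the origins differed by 0.10 (95% interval -0.06 to 0.26) and 0.11 (-0.06 to 0.27).

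LIN28B, the paralogue, was the least abundant of the 7 and was set apart by medium more than by day. It had 60.9 and 64.8 TPM in hPSC, 79.4 and 71.7 in aNE and 58.8 and 58.0 in pNE. The log2 difference from hPSC was 0.26 in aNE (adjusted p = 0.0538) and -0.10 in pNE (adjusted p = 0.451), and pNE was under aNE by -0.36 (adjusted p = 0.029). At day 4 the lowest levels were in forebrain medium, with 63.2 and 61.2 TPM in aNE_T and 51.1 and 53.8 in pNE_T. The aNE_M libraries had 84.1 and 105 TPM and the aNE_H libraries 90.1 and 83.9. The pNE_M libraries had 74.8 and 77.7 TPM and the pNE_H libraries 89.8 and 103. In each origin, no forebrain-medium library reached any of the libraries of the other media.

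For cells of aNE origin, LIN28B was higher than in forebrain medium by 0.59 in midbrain (SE 0.10, adjusted p = 0.00053) and 0.48 in hindbrain medium (adjusted p = 0.00329). For pNE origin the differences were 0.53 (adjusted p = 0.00138) and 0.87 (adjusted p = 5.09e-05). Compared with day 2, LIN28B was higher by 0.71 in pNE_H (adjusted p = 0.000103) and by 0.20 in aNE_H (adjusted p = 0.151). The difference between these, 0.51 (SE 0.14), had an adjusted p of 0.0265. All of these values are under 2-fold. LIN28A made up 89.8% to 94.7% of the summed LIN28 TPM in the group means, so LIN28B remained the minor paralogue in every group.

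**Figure D2:**
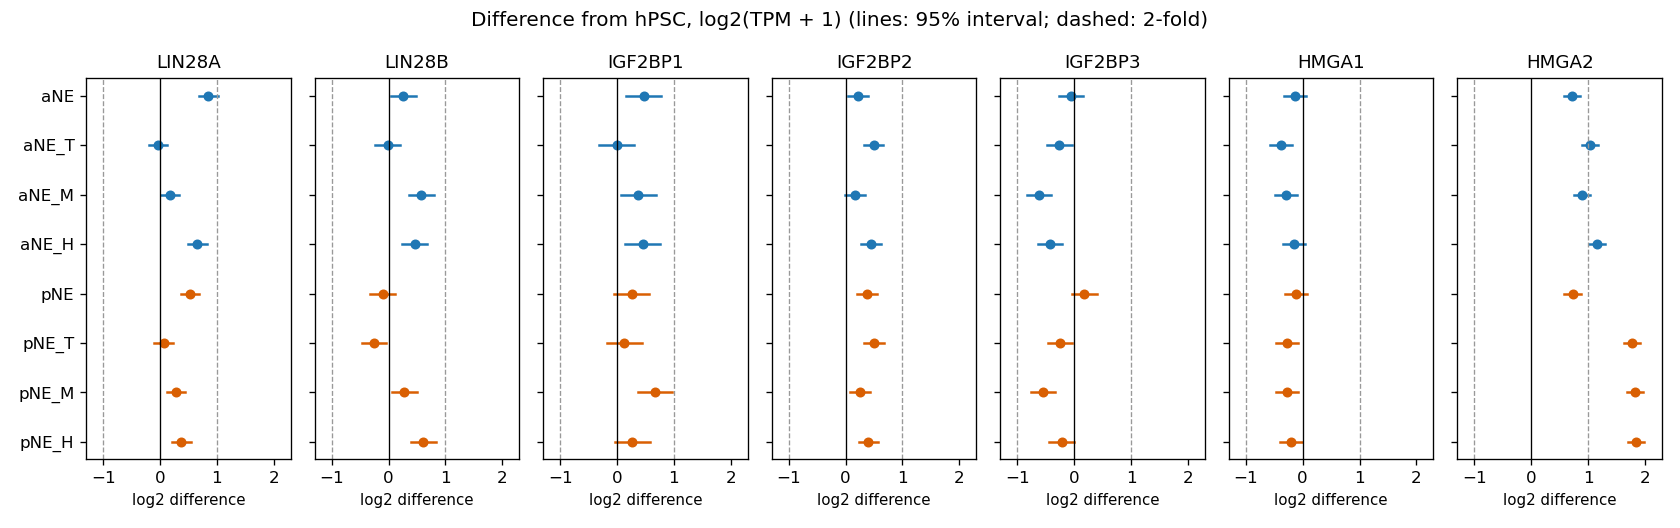
Difference from hPSC on the log2(TPM + 1) scale (horizontal axes) of each of the 7 genes in the 8 other groups, with 95% intervals from limma; dashed lines mark 2-fold. The interval of HMGA2 lies above 0 in all 8 groups and its estimate reaches 1.85 in pNE_H, and no other gene has an estimate past 2-fold.

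The 3 IGF2BP genes moved by less than 2-fold and not in the same way. IGF2BP1 had 145 and 146 TPM in hPSC, 216 and 189 in aNE and 153 and 198 in pNE. It was higher by 0.47 in aNE (SE 0.14, adjusted p = 0.0174), while pNE, whose libraries were far apart, differed by 0.26 (adjusted p = 0.177). At day 4 it was highest in pNE_M (247 and 217 TPM) and lowest in aNE_T (149.6 and 140.1). The other day-4 libraries had 179 and 199 TPM (aNE_M), 227 and 174 (aNE_H), 152 and 167 (pNE_T) and 191 and 161 (pNE_H). Against hPSC the difference was 0.67 in pNE_M (adjusted p = 0.00174) and -0.01 in aNE_T (95% interval -0.31 to 0.30, adjusted p = 0.988).

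IGF2BP2, unlike its paralogues also widely expressed in adult tissue, was lowest in hPSC at 91.7 and 96.8 TPM. It had 107 and 112 TPM in aNE and 119.8 and 125 in pNE, higher by 0.22 (SE 0.08, adjusted p = 0.0438) and 0.37 (adjusted p = 0.00251). Forebrain medium gave the highest levels, 130.0 and 136 TPM in aNE_T and 129 and 138 in pNE_T, and both groups were higher than hPSC, by 0.49 (adjusted p = 0.000184) and 0.50 (adjusted p = 0.000163). Midbrain medium gave lower ones, 99.2 and 112 TPM in aNE_M and 110.2 and 114 in pNE_M. Hindbrain medium gave 138 and 119 TPM in aNE_H and 122 and 128 in pNE_H. Midbrain was under forebrain medium by -0.33 for aNE origin (adjusted p = 0.00616) and by -0.25 for pNE origin (adjusted p = 0.0345).

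IGF2BP3 was lower in all 12 day-4 libraries than in any library of hPSC or day 2. It had 108 and 116 TPM in hPSC, 109 and 106 in aNE and 126 and 127 in pNE. Midbrain medium had the lowest levels, 64.2 and 81.2 TPM in aNE_M and 75.2 and 77.2 in pNE_M. The other day-4 libraries had 99.4 and 87.4 TPM in aNE_T, 86.9 and 79.5 in aNE_H, 90.2 and 98.2 in pNE_T and 94.3 and 97.1 in pNE_H. From day 2, IGF2BP3 was lower by a log2 difference of -0.57 in aNE_M (SE 0.10, adjusted p = 0.000628) and -0.72 in pNE_M (adjusted p = 8.06e-05). In forebrain medium the differences from day 2 were -0.20 (aNE_T, adjusted p = 0.144) and -0.42 (pNE_T, adjusted p = 0.00518), and in hindbrain medium -0.37 (aNE_H, adjusted p = 0.013) and -0.40 (pNE_H, adjusted p = 0.00645). Midbrain medium therefore had the highest IGF2BP1 level of pNE origin beside the lowest IGF2BP3 level.

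As a share of the summed IGF2BP TPM, IGF2BP1 ranged from 39.0% in aNE_T to 55.1% in pNE_M. IGF2BP3 went from 31.8% in hPSC to 18.1% in pNE_M. IGF2BP2 took 26.2% to 35.8%. IGF2BP1 was the largest of the 3 in every group mean.

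HMGA1 was the steadiest gene of the 7. It had 2592 and 2608 TPM in hPSC, 2416 and 2337 in aNE and 2153 and 2658 in pNE, where the 2 libraries were far apart. At day 4 it had 2053 and 1956 TPM in aNE_T, 2135 and 2094 in aNE_M, 2514 and 2173 in aNE_H, 2073 and 2219 in pNE_T, 2086 and 2197 in pNE_M and 2319.9 and 2211 in pNE_H. All 12 of these libraries were under both hPSC libraries. The differences from hPSC were -0.38 in aNE_T (SE 0.09, adjusted p = 0.00333), -0.30 in aNE_M (0.0158), -0.28 in pNE_T (0.0199) and -0.28 in pNE_M (0.0212). In aNE_H and pNE_H they were -0.15 (adjusted p = 0.19) and -0.20 (adjusted p = 0.084). Between origins in 1 medium, HMGA1 differed by 0.10, 0.02 and -0.05 in forebrain, midbrain and hindbrain medium, with 95% intervals that reach from -0.24 to 0.29 in all.

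HMGA2 was alike in both origins at day 2 and then differed between them in all 3 media at day 4. It had 113 and 122 TPM in hPSC and nearly the same level in both kinds of ectoderm at day 2, 199 and 190.4 in aNE and 190.2 and 200.1 in pNE. Against hPSC it was higher by 0.72 in aNE (SE 0.07, adjusted p = 2.12e-06) and 0.73 in pNE (adjusted p = 2.08e-06), under the 2-fold minimum. The difference between pNE and aNE was 0.00 (95% interval -0.14 to 0.15, adjusted p = 0.993).

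At day 4 the pNE-derived libraries had 390.3 and 418 TPM in forebrain medium (pNE_T), 416 and 423 in midbrain medium (pNE_M) and 419 and 433 in hindbrain medium (pNE_H). The aNE-derived libraries had 248 and 236 TPM (aNE_T), 208 and 232 (aNE_M) and 269 and 259 (aNE_H). All 6 libraries of pNE origin were thus above all 6 of aNE origin. From day 2 HMGA2 rose by 1.05, 1.10 and 1.12 in pNE_T, pNE_M and pNE_H (adjusted p = 8.9e-08, 3.63e-08 and 3.46e-08). From aNE the differences were 0.31 in aNE_T (adjusted p = 0.00274), 0.18 in aNE_M (0.0544) and 0.44 in aNE_H (0.000226), all under 2-fold. The difference between these courses was 0.73 in forebrain, 0.92 in midbrain and 0.68 in hindbrain medium (SE 0.09, adjusted p of the interaction = 0.000128, 1.63e-05 and 0.000215).

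Set against hPSC, HMGA2 rose by 1.77, 1.83 and 1.85 in pNE_T, pNE_M and pNE_H (adjusted p = 1.57e-10, 1.34e-10 and 1.16e-10). It also rose by 1.04 in aNE_T (adjusted p = 3.27e-08) and by 1.16 in aNE_H (adjusted p = 1.35e-08), and was higher by 0.90 in aNE_M (adjusted p = 1.56e-07), under the 2-fold minimum. The call for aNE_T was lost without the first hPSC library (0.985) and under median-ratio scaling (0.928), and that of pNE_T against pNE without the second pNE_T library (0.997). Directly between origins, HMGA2 was higher in pNE-derived cells by 0.74, 0.93 and 0.69 in forebrain, midbrain and hindbrain medium (adjusted p = 2.55e-06, 4.13e-07 and 5.78e-06), which is under 2-fold. Without the second aNE_M library the midbrain difference was 1.01 and passed the minimum. Among media of pNE origin it differed by at most 0.08 (pNE_H against pNE_T, 95% interval -0.07 to 0.22, adjusted p = 0.492).

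**Figure D3:**
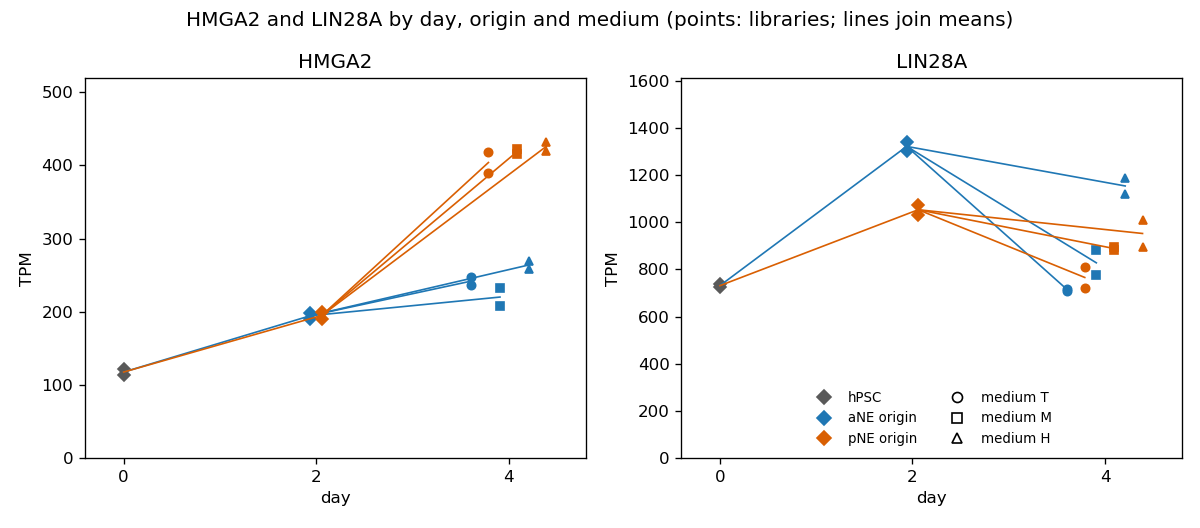
TPM of HMGA2 (left) and LIN28A (right) at days 0, 2 and 4 (horizontal axes; points at days 2 and 4 are spread sideways for sight), with 1 point a library, lines joining group means, colour for origin and symbol for medium. HMGA2 is at 195 TPM in both origins at day 2 and splits by origin at day 4, while LIN28A has its highest mean of each origin at day 2 and then differs by medium.

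HMGA2 took 4.32% of the summed HMGA TPM in hPSC, 7.57% in aNE and 7.56% in pNE. At day 4 its share was 9.43% to 10.8% in the aNE-derived groups and 15.8% to 16.4% in the pNE-derived ones. Other measures moved with origin at day 4 too. The 8 surface ectoderm markers summed to 651 to 1470.2 TPM in the aNE-derived and 1425 to 2321 in the pNE-derived libraries. Most of that sum came from genes shared with stem cells, since it was 1093 to 1109 TPM in hPSC, and KRT14 was listed at 0 in every pNE-derived library. KRT8, KRT18 and KRT19 made up most of it. EPCAM went the other way in each medium, at 9.26 to 12.9 TPM in the aNE-derived and 8.58 to 9.84 in the pNE-derived group means. GATA3 did so in midbrain medium, and TFAP2A and TP63 in hindbrain medium. The pluripotency markers summed to 236 to 266 TPM in the aNE-derived and 130.3 to 189 in the pNE-derived libraries. Most of that sum was DNMT3B and DPPA4. POU5F1 went the other way in each medium, at 2.77 to 3.12 TPM in the aNE-derived and 4.74 to 5.46 in the pNE-derived group means. PRDM14 did so too, at under 1 TPM. The 9 neuron markers, of which 2 or 3 had at least 1 TPM in a day-4 group, summed to less from pNE in each medium. Their sums were 170.1 to 192 TPM in aNE_T and 47.6 to 54.8 in pNE_T, 516 to 561 in aNE_M and 231 to 249 in pNE_M, and 166 to 184 in aNE_H and 64.8 to 74.8 in pNE_H. NEUROD4 was listed at 0 in all of these groups except aNE_M and pNE_M. The 7 neural crest markers were lower from pNE as well, at 34.1 to 35.8 TPM in aNE_T and 18.1 to 19.1 in pNE_T, 142 to 150.3 in aNE_M and 93.1 to 101 in pNE_M, and 122 to 127 in aNE_H and 75.2 to 84.7 in pNE_H. The neural ectoderm sum was 1111 to 1116 TPM in aNE_T and 527 to 562 in pNE_T. In midbrain medium it was 329 to 355 (aNE_M) and 337 to 385 (pNE_M), and in hindbrain medium 281 to 334 (aNE_H) and 194 (pNE_H). The members did not all move with their sum. PAX6 was at 18.4 TPM in aNE_T and 34.6 in pNE_T, and PAX6 and SOX2 were also higher from pNE in hindbrain medium. In midbrain medium ZIC1 (34.5 and 136 TPM), SOX2 (71.8 and 115), SOX1 and HES5 were higher from pNE. CDH2 (175 and 105), SOX3 (41.4 and 2.43), LHX5 (15.2 and 0), PAX6 and SOX21 were lower from pNE there. The 9 mesendoderm markers summed to 97.8 to 117 TPM in aNE_M, mostly MIXL1, and to 16.5 in pNE_M. In the other media their sums were higher from pNE. They were 6.04 to 6.11 TPM in aNE_T and 10.7 to 12.9 in pNE_T, and 6.01 to 7.59 in aNE_H and 12.9 to 16.9 in pNE_H. Those of pNE_T and pNE_H were mostly FOXA2, GATA4 and GATA6. GSC went the other way, at 5.36 TPM in aNE_T and 0.519 in pNE_T, and at 3.99 in aNE_H and 0 in pNE_H. EOMES did so too, at 1.67 TPM in aNE_H and 0.0638 in pNE_H, and so did MIXL1 in hindbrain medium, at under 1 TPM. The part of any of these markers in the HMGA2 difference was not tested.

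**Figure D4:**
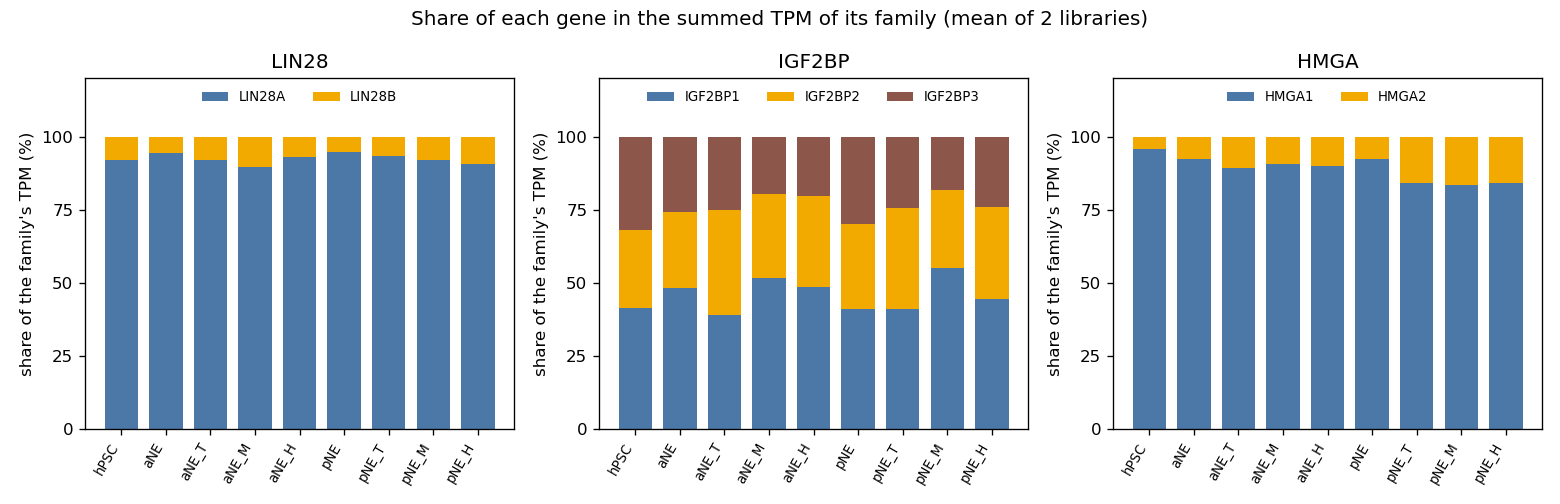
Share of each gene in the summed TPM of its family (vertical axes, percent, mean of 2 libraries) in the 9 groups (horizontal axes), for LIN28, IGF2BP and HMGA. LIN28A and HMGA1 keep at least 83.6% of their families in every group, while the HMGA2 part grows from 4.32% in hPSC to 16.4% in pNE_M.

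The sum of squares of log2(TPM + 1) over the 12 day-4 libraries was divided between origin, medium, their interaction and the spread between replicates. For HMGA2, 94.9% lay between origins and 2.23% between media. The other 6 genes had the reverse order. Medium took 80.5% for LIN28B, 77.6% for LIN28A, 75.8% for IGF2BP2, 64.3% for IGF2BP3, 60.3% for IGF2BP1 and 51.1% for HMGA1, and origin took 0.272% (LIN28A) to 7.37% (IGF2BP3). The spread between replicates took 1.17% for HMGA2 and 36.4% for HMGA1. With 1 library a group, the origin share of 2 genes moved most: without the first replicate of each group it was 51.6% for HMGA1 and 22.0% for IGF2BP3.

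**Figure D5:**
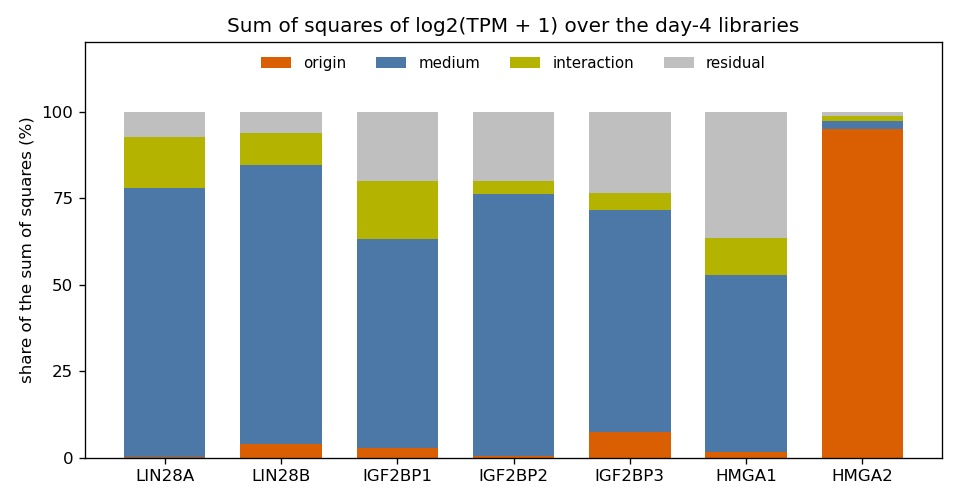
Share of the sum of squares of log2(TPM + 1) over the 12 day-4 libraries (vertical axis, percent) that lies between origins, between media, in their interaction and between replicates, for each of the 7 genes. Origin fills 94.9% of the HMGA2 bar and at most 7.37% of the others, where medium is the largest part.

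The counts of called genes are given here beside the share of all tested genes that the same rule called. Between aNE and hPSC, where 13.5% of all tested genes were called, none of the 7 was, and 4 passed the adjusted p alone (41.5% of all genes; 5 of the 7 at an unadjusted p under 0.05, limma). Between pNE and hPSC none was called (12.9% of all genes), and 3 passed the adjusted p alone (38.4%; 3 unadjusted). Between pNE and aNE none was called (3.85%), and 2, LIN28A and LIN28B, passed the adjusted p alone (13.6%; 3 unadjusted). The median log2 difference of the 7 was 0.26 in both comparisons with hPSC, beside 0.06 (aNE) and 0.05 (pNE) over all genes.

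From day 2 to day 4, HMGA2 was the 1 gene of the 7 called in pNE_T (10.2% of all genes were called), in pNE_M (12.7%) and in pNE_H (12.3%). At the adjusted p alone 3, 5 and 3 of the 7 passed there, beside 33.6%, 35.4% and 37.2% of all genes. None of the 7 was called in aNE_T (9.03% of all genes), aNE_M (12%) or aNE_H (10.1%), where 4, 3 and 3 passed the adjusted p alone (30.3%, 35.5% and 31.3% of all genes) and 6, 4 and 4 had an unadjusted p under 0.05 (limma). With 7 genes, each count moves by a large step with 1 gene, and no test was made of the counts against these shares.

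Against hPSC at day 4, HMGA2 was the 1 called in aNE_T (21% of all genes), aNE_H (17.7%), pNE_T (21.4%), pNE_M (18.2%) and pNE_H (20.3%), and none was called in aNE_M (17.2%; 6 unadjusted). At the adjusted p alone 4 passed in aNE_T (52.7% of all genes), 5 in aNE_M (45.8%), 6 in aNE_H (45.5%), 4 in pNE_T (52.5%), 7 in pNE_M (46.7%) and 4 in pNE_H (50.8%). In pNE_M, the 1 group where all 7 passed, 5 were higher and IGF2BP3 and HMGA1 lower. These comparisons share the hPSC or the day-2 libraries, so they are not separate evidence.

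Between origins at day 4, none of the 7 was called in forebrain (7.77% of all genes), midbrain (5.74%) or hindbrain medium (6.83%), with 2 at an unadjusted p under 0.05 in each (limma). HMGA2 alone passed the adjusted p in forebrain (21.1% of all genes) and midbrain medium (16.6%), and HMGA2 and LIN28A did in hindbrain medium (21.9%).

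Between media, none was called in aNE-derived cells for midbrain against forebrain (10.1%; 5 unadjusted), hindbrain against forebrain (6.6%; 4) or hindbrain against midbrain (4.92%; 3). The adjusted p alone was passed there by 4, 3 and 3 of the 7, beside 32.5%, 27.2% and 14.2% of all genes. None was called in pNE-derived cells for midbrain against forebrain (8.6%; 5 unadjusted), hindbrain against forebrain (5.03%; 2) and hindbrain against midbrain (5.99%; 3). There 5, 2 and 2 passed the adjusted p alone, beside 28.5%, 18.2% and 19.7%.

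In the interactions of origin and day, none passed 2-fold in forebrain (7.14%; 2 unadjusted), midbrain (7.02%; 3) or hindbrain medium (7.83%; 2). At the adjusted p alone, 2 of the 7 did in each, HMGA2 each time, beside 12.3%, 13.9% and 16.1% of all genes.

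The order of the 9 groups was mostly not sharp. LIN28A ran from aNE (1322 TPM) over aNE_H (1154) and pNE (1053) to pNE_H, pNE_M, aNE_M, pNE_T, hPSC and aNE_T (713), with no neighbouring pair at an adjusted p under 0.05. The same held for each neighbouring pair of LIN28B, IGF2BP1, IGF2BP2, IGF2BP3 and HMGA1. For HMGA2, 2 of its 8 neighbouring pairs differed: pNE_T (404 TPM) over aNE_H (264), by 0.61 (adjusted p = 1.35e-05), and aNE (195) over hPSC (118), by 0.72 (adjusted p = 2.12e-06). Its groups therefore stood on 3 steps, with hPSC lowest, the day-2 and aNE-derived groups in the middle and the pNE-derived groups on top. Within the middle step, groups further apart in the order did differ, such as aNE_H over aNE above.

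Other genes of this pathway were counted in the 8 comparisons with hPSC, in which 12.9% to 21.4% of all tested genes were called and 38.4% to 52.7% passed the adjusted p alone. Of 17 genes that process or turn over let-7, such as DROSHA, DICER1 and the uridylyltransferase TUT4, 0 or 1 was called in each of these comparisons, while 6 to 11 passed the adjusted p alone and 7 to 12 had an unadjusted p under 0.05 (limma). The few called, named after their values were seen, were AGO4, higher in aNE, aNE_T and pNE_T, and AGO2, lower in pNE_H. DICER1, which cuts the let-7 precursor, had 21.7 ± 1.4 TPM (SD, n = 2) in hPSC and 35.9 ± 1.0 in aNE, higher by 0.70 (adjusted p = 0.000153), and 24.4 to 32.6 TPM in the group means at day 4. Among 9 host transcripts of let-7 genes, 3 were measured here, WDR82, HUWE1 and SPACA6, and none was called against hPSC, with 0 or 1 at an unadjusted p under 0.05 (limma).

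Other genes known as let-7 targets moved in both directions. Of 26, between 2 and 5 rose and 0 to 2 fell in a given comparison with hPSC, 3 to 7 in all, beside 12.9% to 21.4% of all genes, and the medians of the 26 lay between 0.09 and 0.28 beside 0.00 to 0.08 over all genes. PRTG, a cell-surface receptor of the early neural tube, rose from 2.64 ± 0.57 TPM in hPSC (SD, n = 2) to 108 ± 7.0 in aNE and 209.9 ± 14 in pNE, and had 113 to 439.9 TPM in the group means at day 4. CDK6, a G1 cyclin-dependent kinase, rose from 4.87 ± 1.2 TPM to between 10.8 and 41.6 in all 8 groups. MYC fell by 2.82 in aNE_M, 1.91 in pNE_M and 1.99 in pNE_H (adjusted p = 2.22e-07, 8.28e-06 and 5.01e-06). TRIM71, a ubiquitin ligase and a classic let-7 target of the early embryo, had 133 ± 9.8 TPM in hPSC, 159 ± 3.7 in aNE, 141 ± 13 in pNE and 85.6 to 118 at day 4, with no call against hPSC. MYCN, a transcription factor of the MYC family, was already lower than in hPSC at day 2, where it fell by 1.07 in pNE (adjusted p = 3.81e-06) and differed by -0.90 in aNE (adjusted p = 1.64e-05). Against hPSC it fell by 2.31 in aNE_T and by 1.61 in pNE_T (adjusted p = 1.17e-09 and 3.35e-08), and in aNE_H it differed by -0.13 (adjusted p = 0.355). From day 2 it fell by 1.40 in aNE_T (adjusted p = 4.74e-07) and differed by -0.54 in pNE_T (adjusted p = 0.00128), under 2-fold. MYCN, LIN28A and LIN28B thus all had their lowest day-4 level of each origin in forebrain medium.

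Of 15 writers, erasers and readers of N6-methyladenosine, the mark that IGF2BP proteins read, none was called in any of the 8 comparisons with hPSC (limma), where 3 to 8 had an unadjusted p under 0.05. IGF2, the transcript the IGF2BP family is named for, was at 0.961 ± 0.10 TPM in hPSC (SD, n = 2), 2.20 ± 0.61 in aNE and 2.70 ± 0.73 in pNE. At day 4 it was at 936 ± 51 TPM in pNE_T, 1109.9 ± 66 in pNE_M and 1278 ± 146 in pNE_H, but at 2.67, 12.7 and 3.46 TPM in aNE_T, aNE_M and aNE_H. Between origins it was higher by 7.99, 6.35 and 8.16 (adjusted p = 3.43e-12, 2.68e-11 and 3.53e-12). IGF2 thus split by origin at day 4 as HMGA2 did, and at a far larger size, while none of the 3 IGF2BP genes differed between origins in any of the media at an adjusted p under 0.05.

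Among 10 other high mobility group genes, HMGN5, which binds nucleosomes, fell in all 8 comparisons with hPSC, from 56.7 ± 3.7 TPM to group means of 13.7 to 21.7. The other calls, named after their values were seen, were HMGB2, higher in aNE_T and pNE_T, and HMGB3, lower in pNE_H. Among 12 other RNA-binding proteins of stem and progenitor cells, L1TD1 and ESRP1 fell in all 8 comparisons. Also called, and named after their values were seen, were QKI, higher in aNE_T, and RBPMS, lower in pNE_M. L1TD1, an RNA-binding protein of pluripotent cells that is found with LIN28A, went from 396 ± 12 TPM in hPSC to 27.7 ± 1.9 in aNE and 74.8 ± 0.10 in pNE, and to 4.19 to 22.4 at day 4. ESRP1, an epithelial splicing regulator, went from 89.1 ± 0.30 TPM in hPSC to 33.3 ± 1.8 in aNE and 35.1 ± 3.4 in pNE, and to 0.281 to 6.38 at day 4. LIN28A therefore stood at or above its hPSC level in group means of every group but aNE_T, while L1TD1 fell in all of them.

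By Pearson's r of log2(TPM + 1) over the 18 libraries, among 12445 genes, the nearest patterns to HMGA2 were those of SEMA3C (r = 0.96), PTCH1 (0.94) and PLXNA2 (0.94). SEMA3C, a secreted semaphorin, had 0.192 TPM in hPSC, 6.31 to 16.0 in the aNE-derived and 62.4 to 69.7 in the pNE-derived group means. For LIN28A they were VWCE (0.83), HPS1 (0.82) and UBAP2 (0.81), and for LIN28B SRP72 (0.88), C4orf46 (0.86) and ABRAXAS1 (0.86). For IGF2BP1 they were KHSRP (0.87), GTPBP6 (0.87) and UBN1 (0.87), for IGF2BP2 NEK1 (0.95), ZNHIT6 (0.95) and SS18 (0.94), and for IGF2BP3 ANKEF1 (0.91), SLC7A3 (0.91) and SNTB1 (0.91). For HMGA1 they were ALG3 (0.92), LARP1 (0.87) and NOC2L (0.86). These are descriptions with no test, and the libraries share groups and day. Among the 7 genes themselves, the 21 pairs had r between -0.50 (HMGA1 and HMGA2) and 0.61 (IGF2BP2 and HMGA2), and LIN28A with LIN28B had 0.39.

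Reads from copies could have been assigned to these genes, so the copies were looked up. LIN28AP1 and LIN28AP2 were listed at 0 in all 18 libraries, and 7 pseudogenes of HMGA1 summed to at most 6.21 TPM in a library. RPSAP52, on the strand opposite HMGA2 and overlapping it, had 0.374 to 3.26 TPM. By the call rule it was higher in pNE_M than in hPSC, aNE_M and pNE_T, and it was called in no other comparison. On GRCh38 (GENCODE 29) the genes lie at chr1:26410778-26429722 (LIN28A), chr6:104936616-105083332 (LIN28B), chr17:48997412-49055650 (IGF2BP1), chr3:185643739-185825056 (IGF2BP2), chr7:23310209-23470467 (IGF2BP3), chr6:34236873-34246231 (HMGA1) and chr12:65824131-65966295 (HMGA2). Of these, IGF2BP3 overlaps the protein-coding gene MALSU1 on the other strand, and whether the quantification used strand is not given in the sources used here.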

How the data were processed

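The authors deposited 1 table of TPM values with 18 columns, 1 for each library, and every column was used. Per the labels, poly-A RNA was captured with poly-T beads and primed with random hexamers. Per the submitters' processing notes, the tools were bcl2fastq, FastQC, Trim Galore, kallisto and deepTools and the build hg38, and versions and annotation are not given in the sources used here. Values were analysed as log2(TPM + 1), a scale that understates changes of low genes. Group means were fitted with limma 3.58.1 (R 4.3.3), with a trend in the variance and 9 residual degrees of freedom, and the script was tested on simulated data. P-values were two-sided. Errors are SD between 2 libraries for TPM and SE for log2 differences. The fit was run on all 17033 genes and 27 comparisons. The 7 genes and the gene lists were chosen with earlier results of these data known, so no list is independent evidence. Named genes are the 7, up to 2 rising and 2 falling genes of each list with calls in at least 3 of 6 day-4 comparisons with hPSC, 5 further genes (TRIM71, L1TD1, DICER1, MYCN and IGF2), and the 3 genes nearest to each by r. A further gene that this rule names is not reported here. Alternatives were a pseudocount of 0.1, other filters, scalings and variance models, separate fits, no minimum fold, and leaving out libraries. Protein and promoter sequences were not used here.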

Additional observations from a re-analysis of the deposited data

Results flagged for a closer look

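In the tests of whether the course from day 2 to day 4 differed between origins, 3 of the 7 genes passed an adjusted p of 0.05 (limma), in 6 of 21 tests. HMGA2 was higher from pNE than from aNE by 0.73 in forebrain medium (adjusted p = 0.000128), 0.92 in midbrain medium (1.63e-05) and 0.68 in hindbrain medium (0.000215). For LIN28A the difference was 0.43 in forebrain medium (adjusted p = 0.0172) and 0.43 in midbrain medium (0.0154), where the level dropped less from pNE. For LIN28B it was 0.51 in hindbrain medium (adjusted p = 0.0265). Plating density changed with origin at day 4, and its part was not tested.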

How the results depend on the processing

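HMGA2 was the only gene of the 7 to reach 2-fold in any setting, and no value of the 7 genes turned its direction past the call rule under any setting run. The counts of called genes among the 7 moved mainly with the minimum fold. With none, 4 of the 7 passed between aNE and hPSC and 3 between pNE and hPSC. Between pNE and aNE 2 passed. From day 2 to day 4 the numbers were 4, 3 and 3 for aNE_T, aNE_M and aNE_H and 3, 5 and 3 for pNE_T, pNE_M and pNE_H. Against hPSC they were 4, 5 and 6 for aNE_T, aNE_M and aNE_H and 4, 7 and 4 for pNE_T, pNE_M and pNE_H. Between origins in forebrain, midbrain and hindbrain medium they were 1, 1 and 2. Between media they were 4, 3 and 3 in aNE-derived and 5, 2 and 2 in pNE-derived cells, and in the 3 interactions 2, 2 and 2.

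With 1 library left out, the count ranged from 0 to 1 for pNE_T against pNE (0 without pNE_T replicate 2), for aNE_T against hPSC (0 without hPSC replicate 1), for pNE_M against aNE_M and for the interaction in midbrain medium (both 1 without aNE_M replicate 2). Under median-ratio scaling the count for aNE_T against hPSC was 0. Over all genes, the number called in a comparison was 655 to 3643, 2103 to 8976 with no minimum fold, and 355 to 3480 when only the compared libraries were fitted. With quantile normalization the share of higher genes among those called went from 26.9% to 40.5% in aNE_H against aNE_T, from 32.2% to 43.3% in aNE_H against aNE, from 36.4% to 46.9% in pNE_H against pNE and from 32.8% to 42.8% in pNE_H against pNE_T, the shifts of at least 10 percentage points.

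Equal replicate numbers did not pair the libraries: over 36 pairs of groups the correlation of same-numbered deviations was -0.0896 to 0.0762. A fit with the replicate number as a block left the number of the 7 genes called in each comparison as it was, and moved the numbers over all genes by far less than 1.5 times, with HMGA2 still higher by 1.85 in pNE_H than in hPSC (adjusted p = 5.51e-10). TPM keep no depth, so no counting error can be given, and 2 libraries a group limit what differences under 2-fold can show.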
